A study of Mus musculus with 33 samples.

Results

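The genes described here are 8 costimulatory genes of T cells: the TNF receptor family members Tnfrsf9 (4-1BB), Tnfrsf4 (OX40), Tnfrsf18 (GITR), Tnfrsf1b (TNFR2) and Cd27, the TNF family ligand Cd70, and the CD28 family receptors Icos and Cd28. They were chosen by name, with earlier results of these data known. All 8 were found by symbol in both read count tables, among 19447 gene symbols in all. RNA came from CD8 T cells sorted out of mouse skin in a contact allergy to 2,4-dinitrofluorobenzene (DNFB), a small reactive chemical to which CD8 T cells respond. The glucocorticosteroid TA was put on the skin at 0.01%, and the question of the series was its effect on resident memory T cells (TRM), CD8 cells with CD69 and CD103 on their surface that do not leave the skin.

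Live CD45+CD8+CD69+CD103+ TRM of allergic Nur77GFP mice gave the 17 libraries of the first experiment. In this strain GFP is made under control of the Nr4a1 (Nur77) gene, so it marks cells whose T cell receptor (TCR) has signalled recently. At day 1, which is 24 hours after DNFB retest, GFP-positive and GFP-negative cells were sorted from TA-treated and from acetone-treated skin, 2 libraries each. GFP-negative cells were also sorted at day 6 (144 hours; 2 libraries with TA and 2 with acetone) and at day 0, just before the retest (2 libraries with TA and 3 with acetone). The second experiment held 16 libraries of CD8 T cells from DNFB-sensitized C57BL/6 mice, 2 per group. These were CD69+CD103+ TRM at day 11 and at day 42 after challenge, each with TA or acetone, and 4 subsets by CD69 and CD103 at day 2 without either treatment. The column codes used here do not give every treatment, day or subset, and groups were not read from expression. The day 1 arms, TA and acetone, are therefore called arm I and arm II without saying which is which. Sets K, L and M are day 0 TA, day 6 TA and day 6 acetone in unknown order, subsets U, V and W are the day 2 cells that lack CD69, CD103 or both, and sets P, Q, R and S are the 4 day 11 and day 42 groups. Of these, the codes spell out only the GFP state. The other groups were inferred from the layout of the codes, on the assumption that each code is 1 group: day 0 acetone from the only code with 3 columns, day 1 from the codes with GFP-positive columns, day 2 from the code with 4 subsets, and its CD69+CD103+ cells from the subset code it shares with the day 11 and day 42 columns. Results that use these groups rest on that inference. Whether replicates came from separate mice is not stated, and p-values therefore reflect the spread between these samples only.

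T cell activation needs a signal through the TCR and a second, costimulatory signal. CD28 gives it to resting cells when it binds CD80 or CD86 on antigen-presenting cells, and ICOS, bound by ICOS ligand, gives it to cells already activated. The TNF receptor family members act later: 4-1BB, OX40 and GITR are induced by TCR signals, bind TNF family ligands and, through TRAF adaptors, switch on NF-kappaB and favour survival. TNFR2 is the TNF receptor restricted mainly to immune and endothelial cells, and CD27 is a receptor of naive and memory T cells whose ligand, CD70, appears briefly on activated lymphocytes and dendritic cells.

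In GENCODE vM21 (GRCm38) all 8 are protein-coding genes. Tnfrsf1b (chromosome 4, 145213463 to 145246870, minus strand), Tnfrsf9 (150914562 to 150946102, plus), Tnfrsf4 (156013843 to 156016612, plus) and Tnfrsf18 (156026164 to 156028895, plus) lie on chromosome 4, the last pair as close neighbours. Cd28 (chromosome 1, 60716800 to 60773359, plus) and Icos (60977927 to 61000320, plus) both lie on chromosome 1. Cd27 lies on chromosome 6 (125232622 to 125237010, minus) and Cd70 on chromosome 17 (57145997 to 57149777, minus). Tnfrsf9 overlaps Camta1, Tnfrsf18 an antisense gene (Gm16008), Cd27 the genes Vamp1 and Mir8113, and Icos Gm37039. Strand use in counting was not stated, so reads of an overlapping gene on the other strand cannot be told apart.

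RefSeq start-site windows (GRCm38.p6; 250 bases before and 50 after a start site) were found for 5 of the 8 genes, 6 windows in all: Tnfrsf9, Tnfrsf4, Tnfrsf18, Tnfrsf1b and Cd27. The windows of Tnfrsf9 and Tnfrsf4 are shown because these genes had the largest differences with GFP among the members that were above 0 in every day 1 library. They were searched on both strands for the kappaB consensus bound by NF-kappaB, for the AP-1 site TGANTCA and for the NR4A element AAAGGTCA, and capitals mark matches.
Tnfrsf9, first start, chr4:150919905-150920204, plus strand: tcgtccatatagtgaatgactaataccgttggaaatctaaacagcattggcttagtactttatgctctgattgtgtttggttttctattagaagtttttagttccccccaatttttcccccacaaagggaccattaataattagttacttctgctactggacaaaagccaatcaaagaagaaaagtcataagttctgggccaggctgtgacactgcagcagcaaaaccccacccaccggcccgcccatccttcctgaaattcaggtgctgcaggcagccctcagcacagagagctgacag
Tnfrsf9, second start, chr4:150927749-150928048, plus strand: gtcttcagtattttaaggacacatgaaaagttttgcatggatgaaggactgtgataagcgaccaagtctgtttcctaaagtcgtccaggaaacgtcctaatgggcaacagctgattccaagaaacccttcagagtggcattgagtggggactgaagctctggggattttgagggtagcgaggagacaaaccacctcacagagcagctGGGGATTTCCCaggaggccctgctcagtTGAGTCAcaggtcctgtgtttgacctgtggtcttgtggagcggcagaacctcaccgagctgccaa
Tnfrsf4, chr4:156013445-156013744, plus strand: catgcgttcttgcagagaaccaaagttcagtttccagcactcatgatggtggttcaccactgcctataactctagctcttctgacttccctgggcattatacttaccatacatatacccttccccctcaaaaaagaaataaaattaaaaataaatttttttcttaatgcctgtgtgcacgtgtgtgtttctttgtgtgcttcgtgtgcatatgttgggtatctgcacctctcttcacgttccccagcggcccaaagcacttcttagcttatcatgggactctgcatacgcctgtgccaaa
The second Tnfrsf9 window held 2 overlapping kappaB matches, beginning 43 and 42 bases before the start site, and 1 AP-1 match beginning 15 bases before it. The other windows shown held none of the 3 motifs. Over 32817 windows of this length, 8.46% held a kappaB match, 7.81% an AP-1 match and 1.51% an NR4A match, so such matches are common and describe letters, not bound sites. Reads counted at 3′ ends do not tell which start was used.

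Values are CPM, counts scaled to the total of reads assigned to genes in a library. Library totals ran from 2442825 to 8515297 counts in the first experiment and from 2937814 to 13629838 in the second. At day 1 the arms differed in depth, with 2442825 to 3262545 counts in arm II and 5440609 to 8515297 in arm I, and in mitochondrial reads, with 29.3 to 36.7% in arm II and 22.4 to 28.6% in arm I. The CD8 T cell label was checked against its markers: Cd8a stood at 450.4 to 957 CPM in the first and 482 to 850 CPM in the second experiment. Cd4 had 0 counts in 15 of 17 and in 11 of 16 libraries and at most 22 counts in any library. Lyz2, a defining phagocyte gene, had at most 36 counts, while H2-Ab1 reached 189 CPM in the first and 382 CPM in the second experiment, and Krt14, a keratinocyte gene, 1947 and 1713 CPM. Nr4a1 itself stood at 3627 and 3317 CPM (arm II) and 4433 and 3488 CPM (arm I) in GFP-positive libraries, against 1332 and 1343 CPM (arm II) and 814 and 1147 CPM (arm I) in GFP-negative libraries of day 1, without overlap. The GFP-negative libraries outside day 1 held 505 to 907 CPM of Nr4a1 in sets K and M, but 1628 and 1493 CPM in set L and 2371, 1461 and 2107 CPM in day 0 acetone. These last 5 were above every GFP-negative and below every GFP-positive library of day 1. In bulk samples such as these, fewer cells of a type and less RNA per cell cannot be told apart.

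GFP-positive cells were set against GFP-negative cells at day 1 to ask which costimulatory transcripts went with recent TCR signalling. Averaged over the arms (4 libraries against 4), 6 of the 8 genes were called higher in GFP-positive cells and none lower, where called means an adjusted p under 0.05 by the quasi-likelihood test of edgeR, corrected by Benjamini and Hochberg over all genes tested. Over all 11588 genes tested, 12.1% were called in this comparison. The 6 are Tnfrsf9, Tnfrsf4, Cd27, Tnfrsf18, Cd70 and Tnfrsf1b, while the CD28 family receptors Icos (log2 difference 0.24 ± 0.11 SE, edgeR adjusted p = 0.191) and Cd28 (0.11 ± 0.16, edgeR adjusted p = 0.755) were not called. The median log2 difference of the 7 genes other than Cd70 was 0.96, beside -0.03 over all genes tested.

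**Figure D1:**
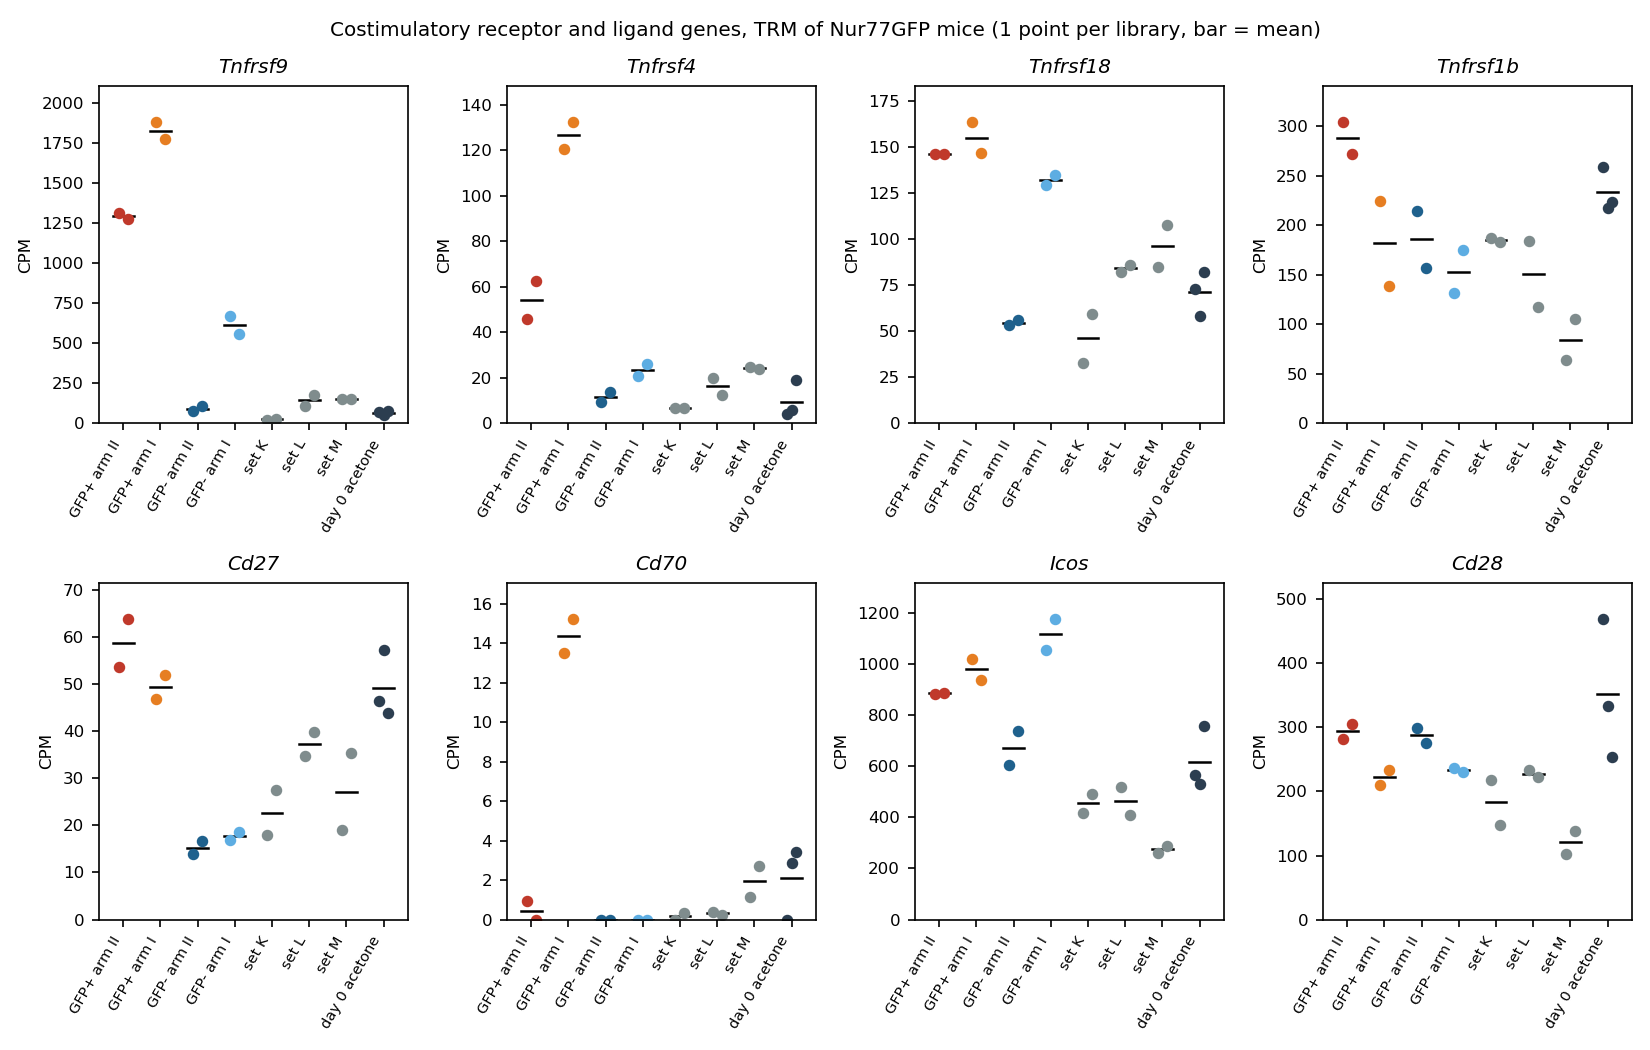
CPM of the 8 genes in the 17 libraries of the first experiment, 1 point per library and a bar at each set's mean, on linear axes from 0. Tnfrsf9, Tnfrsf4 and Cd27 are higher in all 4 GFP-positive libraries than in all 4 GFP-negative libraries of day 1, and Cd70 stands out in GFP-positive cells of arm I, at 13.5 and 15.3 CPM.

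Tnfrsf9, the receptor gene 4-1BB, is a widely used mark of CD8 T cells that have just met antigen. It stood at 1309 and 1273 CPM (arm II) and 1879 and 1771 CPM (arm I) in GFP-positive libraries, against 74.5 and 104 CPM (arm II) and 670 and 559 CPM (arm I) in GFP-negative libraries. The lowest GFP-positive library was above the highest GFP-negative library, yet the GFP-negative libraries of the arms were themselves far apart. The GFP difference was 3.95 ± 0.22 log2 units in arm II (edgeR adjusted p = 5.4e-10) and 1.73 ± 0.20 in arm I (edgeR adjusted p = 1.2e-05). The difference between these was 2.23 ± 0.28 (edgeR adjusted p = 0.00032), and Tnfrsf9 was the only 1 of the 8 genes called in this test of the difference, in which 0.889% of all genes were called. By DESeq2 Tnfrsf18 was called in it too (1.17, DESeq2 adjusted p = 0.0174).

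Tnfrsf4, the receptor gene OX40, was higher with GFP in both arms. It stood at 46.0 and 62.3 CPM (arm II) and 121 and 132 CPM (arm I) in GFP-positive libraries, against 9.42 and 13.5 CPM (arm II) and 20.6 and 25.8 CPM (arm I) in GFP-negative libraries. The groups did not overlap. The difference was 2.34 ± 0.52 log2 units in arm II (edgeR adjusted p = 0.0073) and 2.62 ± 0.49 in arm I (edgeR adjusted p = 0.0024), and the difference between the arms was -0.27 ± 0.70 (edgeR adjusted p = 0.967). Without GFP-negative replicate A the call in arm II was lost (2.14, edgeR adjusted p = 0.062).

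Cd27, the receptor of CD70, was higher with GFP in both arms, and its libraries lay close together within each sort. It stood at 53.6 and 63.8 CPM (arm II) and 46.7 and 52.0 CPM (arm I) in GFP-positive libraries, against 13.9 and 16.7 CPM (arm II) and 16.9 and 18.7 CPM (arm I) in GFP-negative libraries. All 4 GFP-positive libraries were above all 4 GFP-negative libraries, and the arms lay close together. The mean difference was 1.84 ± 0.25 log2 units (edgeR adjusted p = 4.2e-05), with 2.04 ± 0.36 in arm II (edgeR adjusted p = 0.0013) and 1.64 ± 0.35 in arm I (edgeR adjusted p = 0.0059). In arm I the call was lost without GFP-negative replicate A, GFP-negative replicate B or GFP-positive replicate B (edgeR adjusted p = 0.0719, 0.0579 and 0.0551).

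Cd70, the ligand of CD27, was counted mainly in GFP-positive cells of arm I. GFP-positive libraries held 3 and 0 counts in arm II and 115 and 96 counts in arm I, against 0 counts in all 4 GFP-negative libraries. The 211 counts of arm I GFP-positive cells were at least 57.9-fold above, at equal depth, the 3 counts that a count of 0 allows over both GFP-negative libraries of that arm. Over both arms, 214 against 0 counts gave a bound of at least 58.9-fold. The call over both arms (edgeR adjusted p = 0.0153) was lost without arm II GFP-positive replicate A, where the adjusted p was 1, and the call in arm I (edgeR adjusted p = 0.0184) without any single library of that arm (0.0675 to 0.145). In GFP-positive cells the pooled level was 0.505 CPM in arm II against 14.3 CPM in arm I, 28.2-fold lower, a difference not called over all genes (edgeR adjusted p = 0.157). The bounds allow for counting error on the side at 0 only. They take the other side's counts as observed and leave out the spread between libraries.

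Tnfrsf18, the receptor gene GITR, was called higher with GFP in arm II and not in arm I, while the difference between the arms was itself not called (1.14 ± 0.33, edgeR adjusted p = 0.137). GFP-positive libraries stood at 146.5 and 146.3 CPM (arm II) and 164 and 147 CPM (arm I), against 53.2 and 56.0 CPM (arm II) and 129.6 and 135 CPM (arm I) in GFP-negative libraries. The 4 GFP-positive libraries lay close together and above all GFP-negative libraries, of which those of arm II were the lowest. The difference was 1.53 ± 0.24 log2 units in arm II (edgeR adjusted p = 0.00047) and 0.39 ± 0.23 in arm I (edgeR adjusted p = 0.445). Its mean over the arms was 0.96 ± 0.17 (edgeR adjusted p = 0.00051).

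Tnfrsf1b, the receptor gene TNFR2, overlapped between the sorts. It stood at 304 and 272 CPM (arm II) and 225 and 139 CPM (arm I) in GFP-positive libraries, against 215 and 157 CPM (arm II) and 131 and 175 CPM (arm I) in GFP-negative libraries. The mean difference of 0.57 ± 0.18 log2 units (edgeR adjusted p = 0.0426) was just past the threshold. It was lost without arm I GFP-negative replicate A or B, arm I GFP-positive replicate A, arm II GFP-negative replicate B or arm II GFP-positive replicate A or B, with edgeR adjusted p of 0.0525 to 0.224.

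Icos and Cd28 were not called with GFP in either arm by edgeR with all libraries in the fit. Icos stood at 883 and 887 CPM (arm II) and 1020 and 935 CPM (arm I) in GFP-positive libraries, against 603 and 735 CPM (arm II) and 1054 and 1176 CPM (arm I) in GFP-negative libraries. In arm II its libraries did not overlap between the sorts (0.51 ± 0.16 log2 units, edgeR adjusted p = 0.0591), and in arm I they did not either, with the GFP-negative libraries higher (-0.03 ± 0.16 on TMM scaling, edgeR adjusted p = 0.972). The call in arm II was made without GFP-negative replicate B (0.68, edgeR adjusted p = 0.0489). Cd28 stood at 282 and 306 CPM (arm II) and 210.2 and 234 CPM (arm I) in GFP-positive libraries, against 299 and 276 CPM (arm II) and 237 and 231 CPM (arm I) in GFP-negative libraries, and the groups overlapped. In all, 4 of the 8 genes were called in each arm, beside 8.07% of all genes for arm II and 5.36% for arm I.

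**Figure D2:**
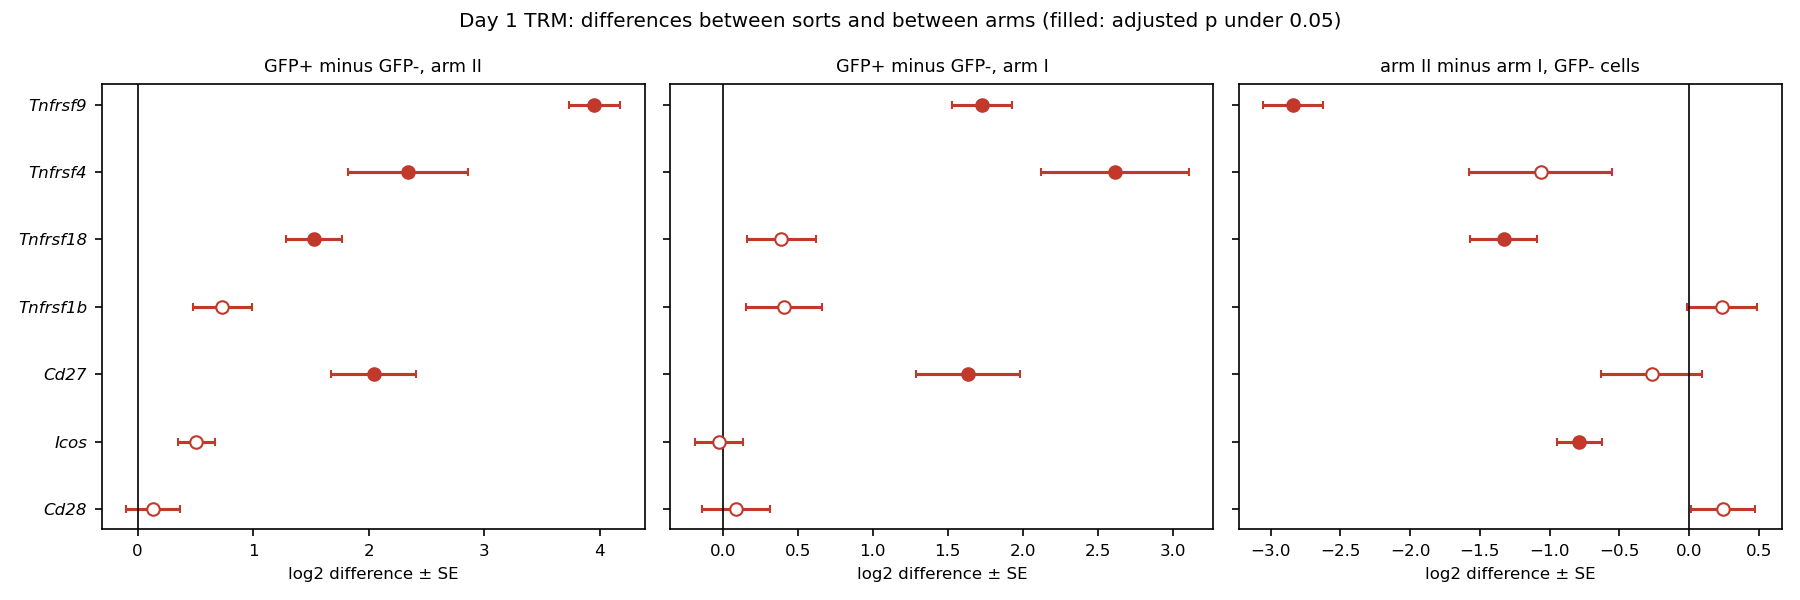
Log2 differences at day 1 with their SE for 7 of the genes (Cd70, with libraries at 0, is left out): GFP-positive minus GFP-negative cells of each arm (arm II at left, arm I in the middle), and arm II minus arm I for GFP-negative cells. Filled points passed an adjusted p of 0.05 over all genes. Tnfrsf9 is far from 0 in all 3 panels, at 3.95, 1.73 and -2.84, while Cd28 lies near 0 in each.

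The arms, TA and acetone in unknown order, differed in GFP-negative cells for 3 of the 8 genes, each lower in arm II, beside 6.69% of all genes called. Tnfrsf9, with 74.5 and 104 CPM in arm II and 670 and 559 CPM in arm I, differed by -2.84 ± 0.21 log2 units (edgeR adjusted p = 3.2e-08). Tnfrsf18, with 53.2 and 56.0 CPM in arm II and 129.6 and 135 CPM in arm I, differed by -1.33 ± 0.24 (edgeR adjusted p = 0.0015). Icos, with 603 and 735 CPM in arm II and 1054 and 1176 CPM in arm I, differed by -0.79 ± 0.16 (edgeR adjusted p = 0.0043), and by -0.67 without arm II GFP-negative replicate A (edgeR adjusted p = 0.0563). No library of arm II reached a library of arm I in these 3 genes. The same held for Tnfrsf4 and Cd27, and Cd28 separated with arm II higher, though none of these was called. How many of all genes separate in this way was not counted, so the separation is not read as a trait of these genes. In GFP-positive cells none of the 8 was called, beside 3.17% of all genes, although the libraries of the arms did not overlap in any of the 8. There 4 of the 8 had an unadjusted p under 0.05 in edgeR, and DESeq2 called 0. Tnfrsf9 differed by -0.61 ± 0.20 (edgeR adjusted p = 0.11) and Tnfrsf4 by -1.34 ± 0.47 (edgeR adjusted p = 0.152).

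Transcripts of other cells moved with these groups, and their part in the results was not tested. All 5 CD4 and regulatory T cell markers were in the tables, and their sum was 241 to 331 CPM in GFP-positive and 65.1 to 160.4 CPM in GFP-negative libraries. Of its defining genes, Cd4 was at 0 in all 8 day 1 libraries and Foxp3 in 7 of the 8, the exception being arm II GFP-negative replicate B with 50 counts, while Il2ra, also made by activated CD8 T cells, stood at 196 to 295 CPM in GFP-positive and 34.0 to 145 CPM in GFP-negative libraries. The sum of 10 mononuclear phagocyte markers was 309 to 362.5 CPM (arm II) and 654 to 835 CPM (arm I) in GFP-positive libraries, against 42.2 and 96.1 CPM (arm II) and 843 and 883 CPM (arm I) in GFP-negative libraries. It was thus higher with GFP in arm II and lower in arm I, without overlap in either. Of the defining genes, Lyz2 was at 0 in all 4 GFP-negative and both arm II GFP-positive libraries, with 1 and 4 counts in arm I GFP-positive libraries. Csf1r was at 0 in both GFP-negative and in 1 of 2 GFP-positive libraries of arm II. H2-Ab1 stood at 81.0 and 82.5 CPM (arm II) and 171 and 177 CPM (arm I) in GFP-positive libraries. In GFP-negative libraries it stood at 0 and 1.59 CPM (arm II) and 166 and 189 CPM (arm I). The 3 neutrophil markers summed to 0.794 to 14.7 CPM in arm II and 70.1 to 73.9 CPM in arm I over both sorts, and in arm I came from S100a8 and S100a9 alone, with Csf3r at 0. The sum of 8 keratinocyte markers was 449 to 493 CPM (arm II) and 836 to 1125 CPM (arm I) in GFP-positive libraries, against 315 and 440 CPM (arm II) and 1492 and 1710 CPM (arm I) in GFP-negative libraries. The 5 of 7 CD8 T cell markers in the tables summed to 1812 to 2634 CPM in GFP-positive and 2658 to 3813 CPM in GFP-negative libraries. Of them, Cd8a was higher with GFP in arm II, at 880 and 957 CPM against 571 and 598 CPM. In arm I it was lower, at 493 and 571 CPM against 702 and 723 CPM. Cd8b1 was lower with GFP in both arms, at 422 and 469 CPM against 614 and 691 CPM (arm II) and 340 and 345 CPM against 550 and 570 CPM (arm I).

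Day 1 cells of each sort, averaged over both arms, were compared with day 0 acetone cells. The day 1 means include TA-treated cells, and the day 0 acetone cells were GFP-negative only. Retest can therefore not be told apart from TA or, for GFP-positive cells, from the sort. GFP-positive day 1 cells had 4 of the 8 genes called, all higher, beside 25.6% of all genes. These were Tnfrsf9 (4.86 ± 0.19 log2 units, edgeR adjusted p = 2.1e-13), Tnfrsf4 (3.49 ± 0.42, edgeR adjusted p = 3.5e-06), Tnfrsf18 (1.40 ± 0.19, edgeR adjusted p = 1.1e-05) and Icos (0.91 ± 0.12, edgeR adjusted p = 1.8e-05). Day 0 acetone libraries held 70.7, 50.7 and 76.5 CPM of Tnfrsf9, 3.87, 5.73 and 18.9 CPM of Tnfrsf4, 72.9, 58.0 and 82.3 CPM of Tnfrsf18 and 564, 529.8 and 756 CPM of Icos. Every GFP-positive day 1 library was above every day 0 acetone library in these 4 genes. Marker sums differed between these groups too, and their part in the result was not tested. The keratinocyte sum was 449 to 1125 CPM in GFP-positive day 1 and 2729 to 3466 CPM in day 0 acetone libraries. The CD8 T cell sum was 1812 to 2634 CPM against 5245 to 6302 CPM, and the CD4 and regulatory T cell sum 241 to 331 CPM against 18.9 to 44.8 CPM, none of the 3 with overlap. Within the CD8 T cell sum, Cd8a overlapped, at 493 to 957 CPM against 477 to 623 CPM. Cd8b1 was lower, at 340 to 469 CPM against 792 to 817 CPM. The defining genes Cd4 and Foxp3 were at 0 in all of these libraries. Il2ra stood at 196 to 295 CPM against 11.5 to 41.8 CPM, and Ctla4 at 16.2 to 41.8 CPM against 0.204 to 2.58 CPM.

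GFP-negative day 1 cells, sorted as lacking the TCR reporter, had 4 of the 8 called as well, beside 7.02% of all genes, with Tnfrsf9 (2.02 ± 0.16, edgeR adjusted p = 1.3e-07) and Icos (0.67 ± 0.12, edgeR adjusted p = 0.0018) higher and Cd27 and Cd70 lower. In arm II neither stood apart from day 0: the arm II libraries of Tnfrsf9, at 74.5 and 104 CPM, and of Icos, at 603 and 735 CPM, overlapped those of day 0 acetone. Cd27 stood at 13.9, 16.7, 16.9 and 18.7 CPM in GFP-negative day 1 libraries, against 46.4, 57.1 and 43.9 CPM in day 0 acetone libraries (-1.41 ± 0.26, edgeR adjusted p = 0.0019). No GFP-negative day 1 library reached a day 0 library. GFP-positive day 1 libraries, at 46.7 to 63.8 CPM, overlapped day 0 in Cd27 (0.43 ± 0.26, edgeR adjusted p = 0.241). Cd70 had 0 counts in all 4 GFP-negative day 1 libraries, against 0, 20 and 12 counts at day 0. With the day 0 counts taken as observed, this was at least 11.9-fold lower at equal depth over the groups. That call (edgeR adjusted p = 0.0382) was lost without day 0 acetone replicate B or C (0.0935 and 0.0951) or without any single GFP-negative day 1 library (0.075 to 0.106), and with only the compared libraries in the fit (0.163). Tnfrsf4 was not called in these cells (1.01 ± 0.40, edgeR adjusted p = 0.141), but was without day 0 acetone replicate C, its highest day 0 library (1.83, edgeR adjusted p = 0.0033). In GFP-negative day 1 libraries the keratinocyte sum was 315 to 1710 CPM and the CD8 T cell sum 2658 to 3813 CPM, again below those of day 0, and the CD4 and regulatory T cell sum, at 65.1 to 160.4 CPM, above. Cd8a, at 571 to 723 CPM, overlapped day 0, while Cd8b1, at 550 to 691 CPM, was below it. Cd4 was at 0 in all 4 of these libraries and Foxp3 in 3, and Il2ra, at 34.0 to 145 CPM, overlapped day 0. The part of these in the result was not tested.

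**Figure D3:**
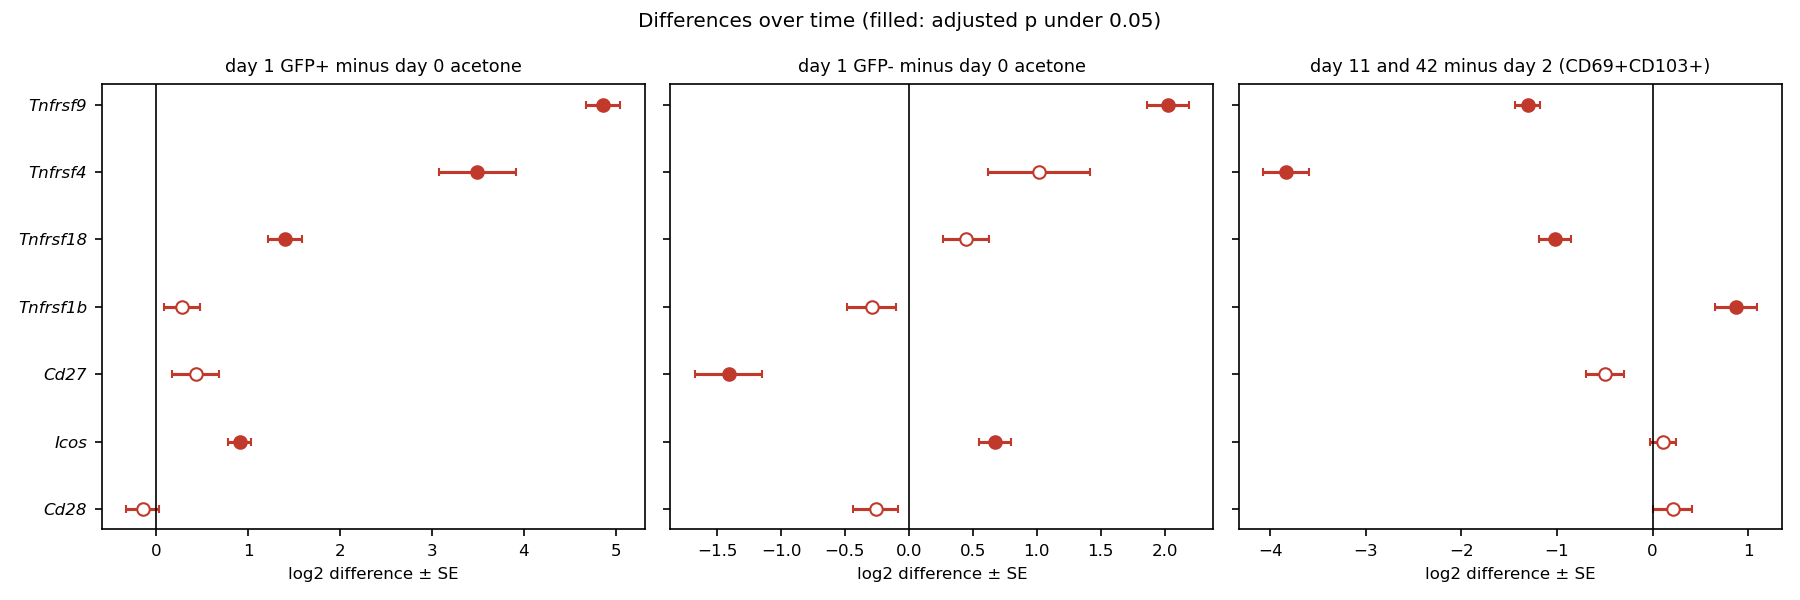
Log2 differences with their SE for 7 of the genes (Cd70 is left out): GFP-positive and GFP-negative day 1 cells, each minus day 0 acetone cells, and CD69+CD103+ cells of day 11 and day 42 minus those of day 2. Filled points passed an adjusted p of 0.05 over all genes. Tnfrsf4 lies at 3.49 in the first panel and at -3.83 in the last, and Cd27 at -1.41 in the middle panel. Treatment differed along with day in each panel.

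Among the GFP-negative sets outside day 1, 6 of the 8 genes differed by the F test over sets K, L and M and day 0 acetone, beside 9.5% of all genes. Tnfrsf9 had its lowest values of the series in set K, at 22.3 and 23.4 CPM, against 107 and 177 CPM in set L, 152 and 153 CPM in set M and 50.7 to 76.5 CPM in day 0 acetone (edgeR adjusted p = 1.6e-07). Set K was below every other library of the first experiment. The CD28 family and TNFR2 ran the other way, with set M lowest. Icos stood at 261 and 289 CPM in set M, against 418 and 492 CPM in set K, 516 and 407 CPM in set L and 529.8 to 756 CPM in day 0 acetone (edgeR adjusted p = 0.0010). Cd28 stood at 103 and 138 CPM in set M, against 217 and 148 CPM in set K, 234 and 222 CPM in set L and 253 to 469.7 CPM in day 0 acetone (edgeR adjusted p = 0.0011). For Tnfrsf1b, set M held 63.6 and 105 CPM, set K 187 and 183 CPM, set L 184.5 and 117 CPM and day 0 acetone 217 to 259 CPM (edgeR adjusted p = 0.0044). That call was lost without set M replicate A (edgeR adjusted p = 0.0748).

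The calls of Tnfrsf4 (edgeR adjusted p = 0.0454) and Tnfrsf18 (edgeR adjusted p = 0.0323) among these sets were close to the threshold. Tnfrsf4 was lost without day 0 acetone replicate B, or without either library of set K or of set M (0.0753 to 0.161), and Tnfrsf18 without set K replicate A or either library of set M (0.0507 to 0.191). Both calls were lost with only the compared libraries in the fit (edgeR adjusted p = 0.172 for Tnfrsf4 and 0.0924 for Tnfrsf18). Set K had the lowest mean in both, with libraries at 6.64 and 6.78 CPM of Tnfrsf4 and 32.8 and 59.3 CPM of Tnfrsf18. Its libraries were not all the lowest. Day 0 acetone libraries held 3.87, 5.73 and 18.9 CPM of Tnfrsf4 and 58.0 to 82.3 CPM of Tnfrsf18. Cd27 ranged from 18.0 to 57.1 CPM over these 9 libraries (edgeR adjusted p = 0.171), and Cd70 from 0 to 3.44 CPM. Markers of other cells and mitochondrial reads differed among these sets, and their part in the results was not tested. The keratinocyte sum was 4540 and 4825 CPM in set M, 1587 and 1612 CPM in set K and 883 and 898 CPM in set L, against 2729 to 3466 CPM in day 0 acetone. The mononuclear phagocyte sum was 112 and 54.2 CPM in set K and 362 to 465 CPM in sets L and M, against 324.5 to 482 CPM in day 0 acetone. Mitochondrial reads made up 34.9 and 36.3% in set K and 22.2 to 25.4% in sets L and M, against 24.9 to 31.5% in day 0 acetone.

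Levels in the second experiment come from another table and other mice, so they are set beside the first without a test. All 16 libraries of Icos, at 2031 to 4495 CPM, and of Cd28, at 693 to 1542 CPM, were above all 17 libraries of the first experiment, at 261 to 1176 CPM and 103 to 469.7 CPM. How many of all genes separate in this way was not counted, so this is not read as a trait of these genes. Mitochondrial reads differed too, at 22.2 to 36.7% in the first and 12.8 to 21.3% in the second experiment. Tnfrsf9, at 137 to 652 CPM, lay inside its range of the first experiment. CD69+CD103+ cells of day 11 and day 42 (8 libraries) were compared with those of day 2 (2 libraries). The later cells came from skin with TA or acetone and the day 2 cells from skin with neither. Time and treatment can therefore not be told apart in this comparison. Of the 8 genes, 5 were called, 1 higher and 4 lower, beside 8.21% of all genes.

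Tnfrsf4 had the largest difference of the 7 members other than Cd70. It stood at 4.96 to 29.4 CPM in day 11 and day 42 libraries (median 14.7), against 222 and 179.5 CPM in day 2 CD69+CD103+ libraries. No library came near the other group, and the difference was -3.83 ± 0.24 log2 units (edgeR adjusted p = 1e-08). Tnfrsf9 stood at 137 to 257 CPM (median 220.2), against 494 and 491 CPM at day 2 (-1.31 ± 0.13, edgeR adjusted p = 2.6e-06). For Tnfrsf18, day 11 and day 42 libraries held 74.3 to 128 CPM (median 94.3) and day 2 libraries 193 and 198.5 CPM (-1.02 ± 0.17, edgeR adjusted p = 0.00059). The groups did not overlap in any of them.

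Tnfrsf1b went the other way, at 512 to 909 CPM in day 11 and day 42 libraries (median 672), against 398 and 349 CPM at day 2. The libraries did not overlap (0.88 ± 0.22 log2 units, edgeR adjusted p = 0.0169), but the call was lost without either day 2 library (0.97 and 0.75, edgeR adjusted p = 0.105 and 0.257). Cd70 summed to 62 counts over the 8 libraries of day 11 and day 42, of which 34 and 10 lay in set P and 18 in set S, against 74 and 48 counts at day 2, 3.46-fold lower at equal depth when pooled. Its call (edgeR adjusted p = 0.0435) was lost without either day 2 library, set P replicate 2, or either library of set Q or of set R (0.0506 to 0.206), with only the compared libraries in the fit (0.0645), and by DESeq2 (adjusted p = 0.0586). Set P replicate 1, at 5.45 CPM, was above a day 2 library at 4.21 CPM. Cd27 (-0.50 ± 0.20, edgeR adjusted p = 0.153), Icos (0.11 ± 0.14, edgeR adjusted p = 0.753) and Cd28 (0.21 ± 0.20, edgeR adjusted p = 0.66) were not called.

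**Figure D4:**
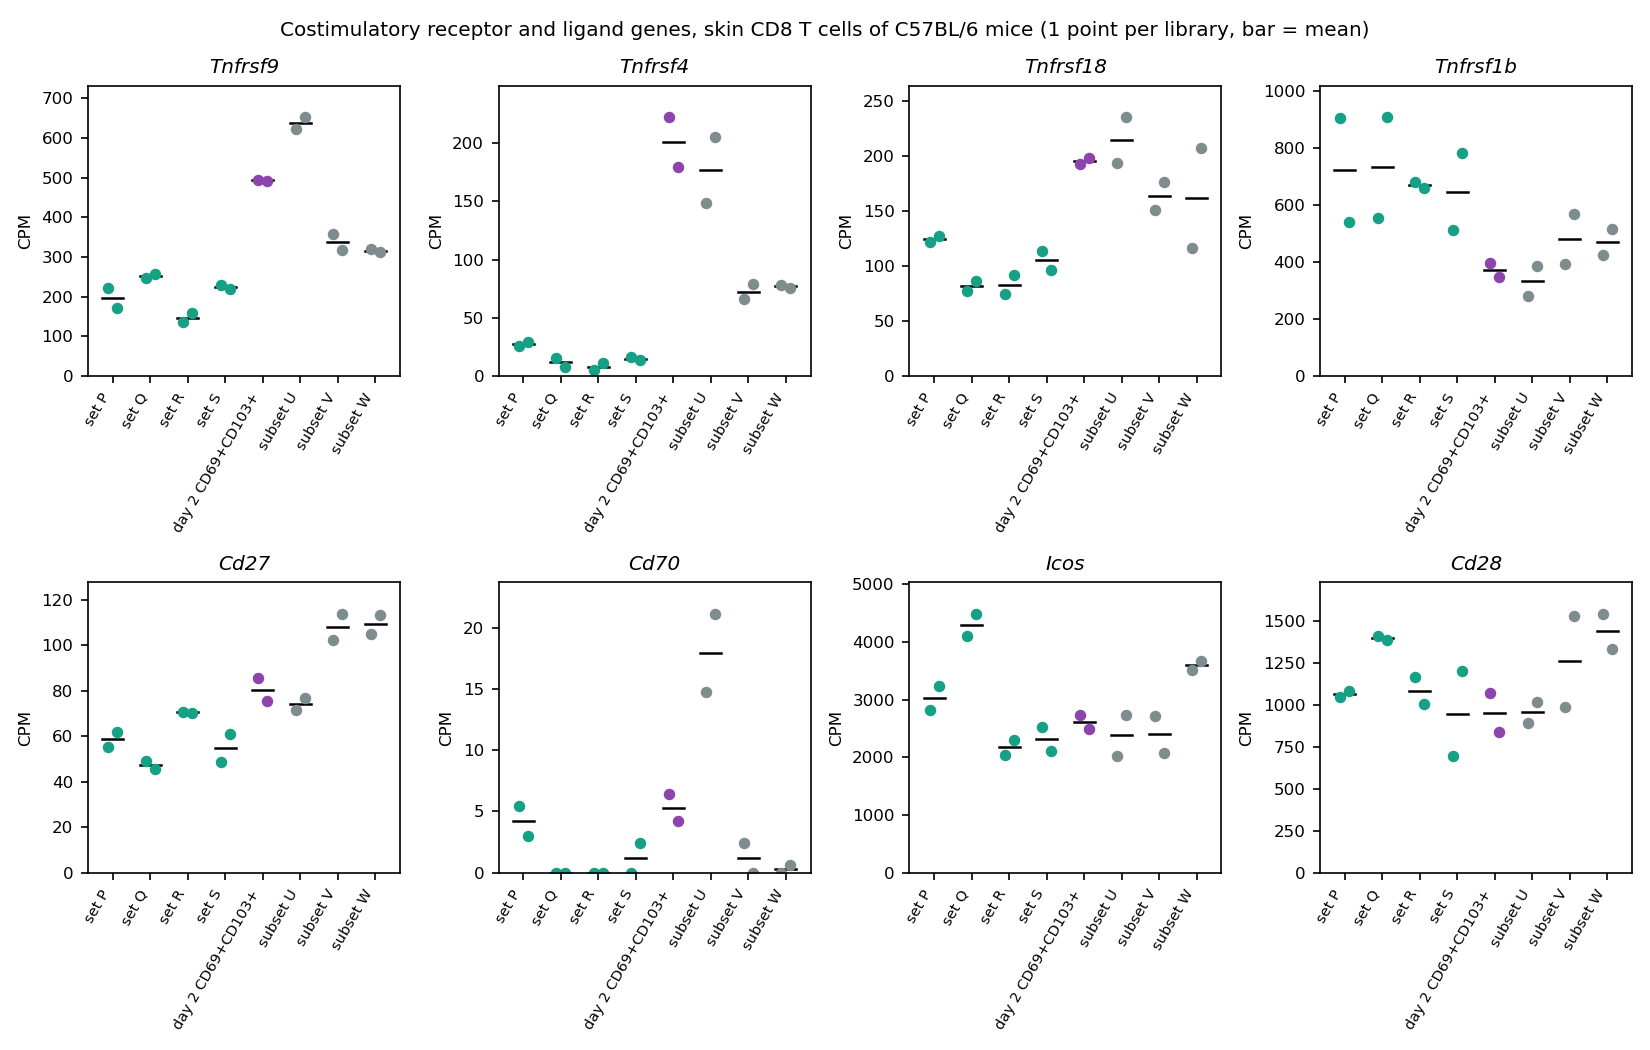
CPM of the 8 genes in the 16 libraries of the second experiment, 1 point per library and a bar at each set's mean, on linear axes from 0. Sets P to S are the day 11 and day 42 groups, and subsets U, V and W the other day 2 cells. Tnfrsf4 is at most 29.4 CPM in sets P to S and at least 65.8 CPM in every day 2 library.

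Markers of other cells moved with this comparison, and their part in it was not tested. The 5 CD4 and regulatory T cell markers summed to 152 to 437.5 CPM in day 11 and day 42 libraries and 867 and 983 CPM in day 2 CD69+CD103+ libraries, most of it Ctla4, at 37.3 to 329.8 CPM against 535 and 682 CPM. Of the defining genes, Foxp3 had at most 1 count in day 11 and day 42 libraries, 7 of which were at 0, and 316 and 150 counts at day 2, while Cd4 was at 0 in 6 of 8 and in both libraries. The 3 neutrophil markers summed to 0 to 0.148 CPM in day 11 and day 42 libraries, where S100a8 was at 0 in all 8, and to 114.5 and 129.2 CPM in day 2 CD69+CD103+ libraries, from S100a8 and S100a9 alone, with Csf3r at 0 in both. The CD8 T cell sum was 3722 to 5414 CPM, against 3070 and 3259 CPM at day 2. Within it, Cd8a, at 482 to 730 CPM against 647 and 686 CPM, and Cd8b1, at 360 to 622 CPM against 454 and 505 CPM, overlapped. The day 2 CD69+CD103+ libraries were also deeper, with 11395588 and 11532881 counts, than those of day 11 and day 42, with 2937814 to 7407069.

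Among the 4 day 11 and day 42 sets, 1 of the 8 genes differed by the F test, beside 2.12% of all genes: Icos (edgeR adjusted p = 0.0023). It stood at 4111 and 4495 CPM in set Q and 2823 and 3239 CPM in set P, against 2532 and 2114 CPM in set S and 2038 and 2311 CPM in set R. Set Q lay above all other libraries and set P above those of sets R and S. Tnfrsf4 (edgeR adjusted p = 0.0649) was called when a library of set Q, set R replicate 2 or set S replicate 2 was left out (0.0196 to 0.0499), with 26.1 and 29.4 CPM in set P, above all others. Cd28 (edgeR adjusted p = 0.374) was called without set S replicate 2 (0.0486) and with no low-count filter (0.0405).

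At day 2, CD69+CD103+ cells were set against the mean of the other subsets, to ask what sets early TRM-phenotype cells apart. None of the 8 was called, beside 0.368% of all genes. In edgeR 2 of the 8 had an unadjusted p under 0.05, and DESeq2 called 1, Tnfrsf4 (DESeq2 adjusted p = 0.0287). Tnfrsf4 stood at 222 and 179.5 CPM in CD69+CD103+ libraries, against 149 and 205 CPM in subset U, 65.8 and 79.3 CPM in subset V and 78.4 and 75.5 CPM in subset W (1.07 ± 0.27 log2 units, edgeR adjusted p = 0.126). The CD69+CD103+ libraries overlapped subset U and stood apart from V and W. For Tnfrsf9 the values were 494 and 491 CPM in CD69+CD103+ libraries, against 623 and 652 CPM in subset U, 357 and 317 CPM in subset V and 319 and 312 CPM in subset W (0.32 ± 0.14, edgeR adjusted p = 0.692). The neutrophil sum, at 114.5 and 129.2 CPM in CD69+CD103+ libraries, was above that of the other subsets, at 12.4 and 9.73 CPM in subset U and 59.9 to 95.3 CPM in subsets V and W, and its part in these values was not tested.

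Over the 4 day 2 subsets as a whole, the F test called these 2 of the 8 genes, beside 1.21% of all genes. The edgeR adjusted p was 0.0113 for Tnfrsf9, lost without subset U replicate 1 (0.0524), and 0.0395 for Tnfrsf4, lost without either CD69+CD103+ library, either library of subset V or subset W replicate 2 (0.0566 to 0.148). Cd70 had 50 and 113 counts in subset U, 74 and 48 in CD69+CD103+ cells, 23 and 0 in subset V and 0 and 4 in subset W. Its highest set mean of the series, 17.96 CPM, was in subset U, with libraries at 14.8 and 21.2 CPM, but Cd70 was not called (edgeR adjusted p = 0.476). Icos was not called (edgeR adjusted p = 0.142) except without subset V replicate 1 (0.0481) or with no low-count filter (0.0146). It stood at 3519 and 3674 CPM in subset W, above the other day 2 libraries, which held 2031 to 2742 CPM. Tnfrsf18, Tnfrsf1b, Cd27 and Cd28 were not called, with edgeR adjusted p of 0.605 to 0.785.

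Of 48 other genes of these pathways, in lists of ligands, further TNF receptors and ligands, adaptors and CD28 signalling genes, 42 were tested at day 1. With GFP, 9 were called higher and 3 lower, 28.6% of those tested, beside 12.1% of all genes. Of 7 further TNF ligand genes tested 4 were higher, among them Tnfsf11 (RANKL), at 45.9 to 87.0 CPM in GFP-positive and 6.35 to 18.9 CPM in GFP-negative libraries (2.53 ± 0.26 log2 units, edgeR adjusted p = 1.2e-06). Another was Tnfsf8 (CD30 ligand), at 8.58 to 43.7 CPM against 0.397 to 6.62 CPM (3.60 ± 0.64, edgeR adjusted p = 0.00062). Traf1, an adaptor that binds 4-1BB and TNFR2, stood at 112 to 222 CPM against 31.1 to 79.1 CPM (1.56 ± 0.24, edgeR adjusted p = 0.00014).

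Tnf, the ligand of TNFR2, was higher with GFP in arm I. It stood at 46.0 and 82.9 CPM (arm II) and 230.5 and 236.5 CPM (arm I) in GFP-positive libraries, against 67.1 and 58.4 CPM (arm II) and 30.0 and 38.7 CPM (arm I) in GFP-negative libraries. The difference was 2.93 ± 0.31 log2 units in arm I (edgeR adjusted p = 2.9e-06), and the difference between the arms, arm II minus arm I, was -2.79 ± 0.42 (edgeR adjusted p = 0.0012), the only such call among the 42 genes. In GFP-positive cells Tnf was lower in arm II (-1.97 ± 0.30, edgeR adjusted p = 0.00045), as was Cd40lg (CD40 ligand), at 9.81 and 5.60 CPM in arm II and 35.2 and 38.2 CPM in arm I (-2.36 ± 0.53, edgeR adjusted p = 0.0163). The Cd40lg call was lost without either GFP-positive library of arm I or without replicate B of arm II (0.076 to 0.143). The ligands of OX40, 4-1BB and GITR had few counts in these cells: Tnfsf4 (OX40 ligand) was at most 3.97 CPM and Tnfsf9 (4-1BB ligand) at most 19.4 CPM in the 33 libraries, and Tnfsf18 (GITR ligand) at most 0.334 CPM.

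In GFP-negative cells Lta (lymphotoxin alpha) was lower in arm II, at 10.6 and 21.4 CPM against 66.5 and 93.2 CPM in arm I (-2.36 ± 0.38, edgeR adjusted p = 0.0005), and 6 of the 42 genes were called in all, 14.3% beside 6.69% of all genes. Against day 0 acetone, Lta was higher in GFP-positive day 1 cells, at 34.7 to 92.8 CPM against 4.58 to 7.94 CPM (3.45 ± 0.32, edgeR adjusted p = 1.3e-07). Ctla4, the inhibitory receptor that competes with CD28 for CD80 and CD86, stood at 16.2 to 41.8 CPM in GFP-positive day 1 and 5.88 to 36.9 CPM in GFP-negative day 1 libraries, against 0.204 to 2.58 CPM at day 0 (5.16 ± 0.65 and 4.26 ± 0.64, edgeR adjusted p = 6.5e-06 and 0.00025). In the second experiment 41 of the 48 genes were tested, and 5 were called higher and 6 lower at day 11 and day 42 than at day 2, 26.8% of those tested, beside 8.21% of all genes. Ctla4 was lower (-2.51 ± 0.20, edgeR adjusted p = 1.6e-07), as was Cd86, at 1.02 to 18.9 CPM against 34.4 and 21.5 CPM at day 2 (-2.72 ± 0.39, edgeR adjusted p = 0.00014). Pik3r1, a subunit of the kinase that CD28 and ICOS recruit, was higher, at 84.7 to 209 CPM against 33.5 to 43.6 CPM (1.88 ± 0.26, edgeR adjusted p = 0.00011).

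Profiles over the 16 sets were compared as set means of log2(CPM + 1), each experiment centred on its own mean, as a description in which depth varies. Whether sets of an experiment shared a sequencing run is not given by the labels. Tnfrsf4, Tnfrsf18 and Tnfrsf9 had like profiles, with Pearson r over 16 sets of 0.91 between Tnfrsf4 and Tnfrsf18, 0.88 between Tnfrsf9 and Tnfrsf18 and 0.77 between Tnfrsf9 and Tnfrsf4. Tnfrsf4 and Cd70, a gene with few counts, had r = 0.69, and Tnfrsf18 and Cd70 0.59. Icos and Cd28 had r = 0.67 and Tnfrsf1b and Cd28 0.66, while Tnfrsf1b ran against Tnfrsf4 with r = -0.46. Among 5819 candidate genes, the profile most like that of Tnfrsf9 was Il2ra, the high-affinity interleukin-2 receptor chain (r = 0.965), followed by Calr (0.948) and the granzyme gene Gzmb (0.946). Tnfrsf4 was most like Zbtb32 (0.963), Pou2f2 (0.954) and Eif5a (0.948), and Tnfrsf18 most like Eif1ax (0.954), Pgk1 (0.950) and Eif3c (0.944). For Tnfrsf1b these were Il21r (0.903), Rrad (0.891) and Ddx5 (0.887), for Icos Rab8b (0.899), Pde4b (0.894) and Med13l (0.877), and for Cd28 Efr3a (0.838), Cnot1 (0.822) and Fam117b (0.819). Cd27 and Cd70 had no gene above 0.794 and 0.813.

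**Figure D5:**
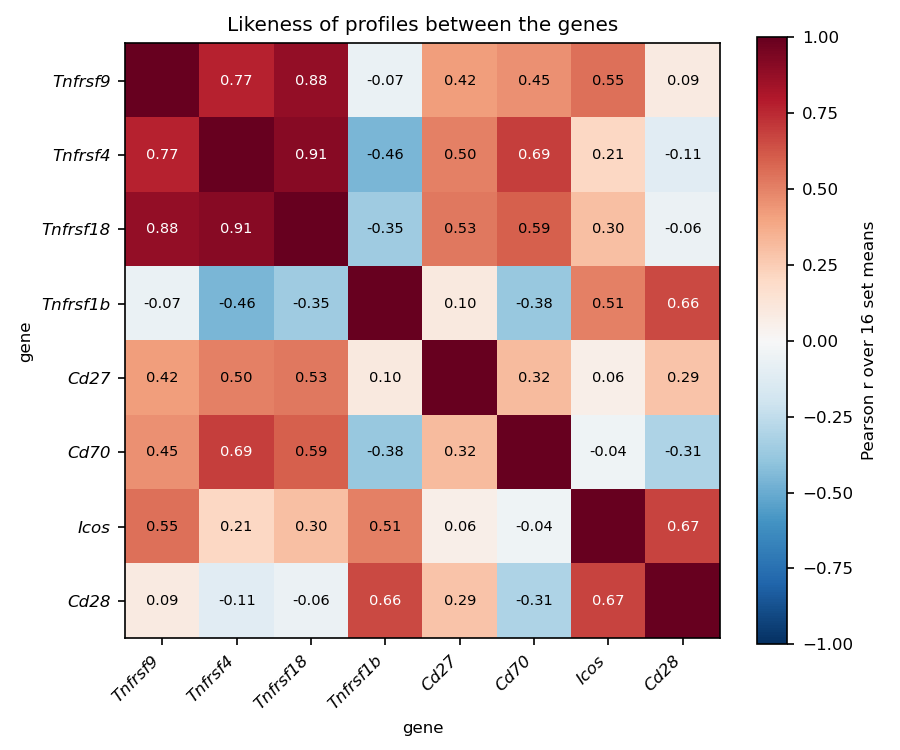
Pearson r between the 8 genes over 16 set means of log2(CPM + 1), each experiment centred on its own mean, written in each cell and shown as colour from -1 to 1. Tnfrsf9, Tnfrsf4 and Tnfrsf18 form a block at 0.77 to 0.91, Tnfrsf4 with Cd70 stands at 0.69 and Icos with Cd28 at 0.67.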

How the data were processed

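CEL-seq2 RNA counts of 33 sorted CD8 T cell libraries were analysed. The deposited tables hold raw counts per gene, made with bcl2fastq 2.2, BWA 0.7.15 and HTSeq on GRCm38, per the submitters' processing notes. Strand use and any collapsing of molecular barcodes are not stated there, and values are taken as reads. Rows of external control transcripts (0 to 16 counts per library) were left out. All 33 columns of libraries were used, with groups inferred from the layout of their codes.

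Tests used edgeR 4.0.16 (R 4.3.3): genes kept by filterByExpr, TMM scaling, 1 mean per set, all libraries of an experiment in each fit, robust dispersions, and the quasi-likelihood F test. Benjamini-Hochberg adjustment ran over 11588 genes of the first experiment and 12236 of the second, and a gene was called under 0.05. The SE is the log2 difference over the square root of F. Fitted folds of Cd70, which was at 0 in whole groups, are not printed. Bounds take 3 counts over the group at 0 and the pooled counts of the other group as observed. CPM are counts over the library total, so a log2 difference on TMM scaling can depart from that of the CPM.

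The 8 genes, 5 pathway lists and 10 marker lists were chosen with earlier results of these data known, and members are compared with percentages over all genes. For no comparison was it counted how many of all genes separate without overlap. Named pathway genes are up to 4 called per comparison by smallest p. Profile genes are the 3 highest in r at 10 CPM or more. Exceptions named after their values were seen are the ligands Tnfsf4, Tnfsf9 and Tnfsf18. Replicate letters did not pair libraries of the first experiment (correlations of deviations -0.06 to 0.033 over 28 pairs of sets, 0 over 0.1), so no block was used. The procedure was tested on simulated data with known changes. Alternatives were median-of-ratios scaling, no filter, no mitochondrial genes, DESeq2 1.42.0 (single contrasts only), the replicate block, only the libraries compared, and each library left out.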

Additional observations from a re-analysis of the deposited data

Results flagged for a closer look

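For 2 genes the GFP difference at day 1 was itself different between the arms, by the edgeR test of that difference. The GFP difference of Tnfrsf9 was larger in arm II by 2.23 ± 0.28 log2 units (edgeR adjusted p = 0.00032): its GFP-positive libraries held 1309 and 1273 CPM in arm II and 1879 and 1771 CPM in arm I, and its GFP-negative libraries 74.5 and 104 CPM in arm II and 670 and 559 CPM in arm I. The GFP difference of Tnf differed by -2.79 ± 0.42 log2 units, arm II minus arm I (edgeR adjusted p = 0.0012): its GFP-positive libraries held 46.0 and 82.9 CPM in arm II and 230.5 and 236.5 CPM in arm I. All GFP-negative libraries of Tnf lay between 30.0 and 67.1 CPM. Each group by its labels held 2 or 3 libraries, so no check for a library that stands apart within a group could be run.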

How the results depend on the processing

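The number of all genes called moved by more than 1.5 times in these cases. With DESeq2 it was 981 for GFP in arm I (621 in edgeR), 1477 for GFP in arm II (935), 321 for the difference of the GFP differences (103), 1273 and 698 between the arms in GFP-negative (775) and GFP-positive cells (367), 1252 for GFP-negative day 1 cells against day 0 (814) and 106 for day 2 CD69+CD103+ cells against the other subsets (45). Without the low-count filter it was 310 for the difference of GFP differences, 626 for the arms in GFP-positive cells, 173 for day 2 CD69+CD103+ cells, 570 over day 2 subsets (148) and 943 over the day 11 and day 42 sets (259). With only the libraries compared it was 242 for GFP in arm II, 68 for the difference of GFP differences, 311 and 207 for the arms in GFP-negative and GFP-positive cells, 26 for day 2 CD69+CD103+ cells and 146 over the day 11 and day 42 sets. The replicate block gave 466 for GFP-negative day 1 cells against day 0. With the block, Tnfrsf1b lost its call with GFP (0.56, edgeR adjusted p = 0.056), Cd70 its call between GFP-negative day 1 and day 0 cells (edgeR adjusted p = 0.147), and Tnfrsf4 gained one there (1.88, edgeR adjusted p = 0.0047). No paired fit was made in the second experiment because its codes do not tell replicates A and B apart.

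Of the 8 genes, 2 were called in the difference of GFP differences with DESeq2 (Tnfrsf18 added). For the arms in GFP-positive cells 2 were called with no filter (Tnfrsf9 and Tnfrsf4) and 1 with only the libraries compared (Tnfrsf4). Tnfrsf4 was the 1 called for day 2 CD69+CD103+ cells with no filter, with DESeq2 and with only the libraries compared. With no filter, 4 were called over the day 2 subsets (Icos and Cd70 added) and 4 over the day 11 and day 42 sets (Cd28, Tnfrsf4 and Cd70 added). In arm II, DESeq2 also called Icos and Tnfrsf1b with GFP, and no filter Tnfrsf1b. No filter also called Tnfrsf4 in GFP-negative day 1 cells against day 0. The cause of these changes was not tested.

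With each library left out in turn, calls over all genes ranged from 312 to 412 for GFP in arm I, 47 to 104 for the difference of GFP differences, 356 to 556 and 179 to 251 for the arms in GFP-negative and GFP-positive cells, 511 to 739 for GFP-negative day 1 cells against day 0, 18 to 74 for day 2 CD69+CD103+ cells and 401 to 1041 for day 11 and day 42 against day 2. Of the 8 genes, 2 to 3 were called for GFP in arm I, 3 to 6 over the sets outside day 1, 1 to 2 over the day 2 subsets, 3 to 5 for day 11 and day 42 against day 2 and 1 to 3 over the day 11 and day 42 sets. Sign changes occurred only when 1 library was left out, and in values never called: Icos (-0.049 to 0.014) and Cd28 (-0.016 to 0.21) with GFP in arm I, Cd28 in the difference of GFP differences (-0.078 to 0.14), Tnfrsf1b between arms in GFP-negative cells (-0.029 to 0.44), Cd27 between arms in GFP-positive cells (-0.052 to 0.26), Cd28 in GFP-positive day 1 cells against day 0 (-0.41 to 0.0895), and Tnfrsf1b (-0.22 to 0.012) and Icos (-0.085 to 0.089) in day 2 CD69+CD103+ cells.

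Depth limits Cd70 most, at 0 to 115 counts per library. CPM over TMM library sizes were 0.879 to 1.17 times, and without mitochondrial genes 1.15 to 1.57 times, those given. Calls that stayed under every setting and left-out library run include Tnfrsf9, Tnfrsf4, Tnfrsf18 and Cd27 with GFP over both arms, Tnfrsf9 and Tnfrsf18 between arms in GFP-negative cells, and Tnfrsf9, Tnfrsf4 and Tnfrsf18 at day 11 and day 42 against day 2.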

Other observations

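Tnfsf11, which encodes RANKL, was the 1 of 41 further pathway genes tested that was called in day 2 CD69+CD103+ cells against the other day 2 subsets. It stood at 51.8 and 44.5 CPM in CD69+CD103+ libraries, against 56.1 and 39.1 CPM in subset U, 6.66 and 9.26 CPM in subset V and 11.7 and 16.4 CPM in subset W (1.53 ± 0.26 log2 units, edgeR adjusted p = 0.0085). The CD69+CD103+ libraries overlapped subset U and were above subsets V and W, as those of Tnfrsf4 did. The call was lost without either CD69+CD103+ library (edgeR adjusted p = 0.207 and 0.052) and with only the day 2 libraries in the fit (0.0625).

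Among the GFP-negative sets outside day 1, the ligand genes Tnf and Lta differed by the F test (edgeR adjusted p = 0.0037 and 0.0013). Tnf stood at 30.7 and 27.1 CPM in set M and 43.4 and 60.3 CPM in set K, against 102 and 93.5 CPM in set L and 99.0, 59.9 and 112 CPM in day 0 acetone. Lta stood at 23.0 and 26.5 CPM in set M and 13.4 and 21.2 CPM in set L, against 7.03 and 10.2 CPM in set K and 7.94, 4.58 and 6.59 CPM in day 0 acetone. Ctla4 differed among the day 11 and day 42 sets (edgeR adjusted p = 5.6e-05), with 329.8 and 296 CPM in set Q, 182 and 86.2 CPM in set P, 71.1 and 37.3 CPM in set S and 44.8 and 77.6 CPM in set R. Sets Q and P were also those with the highest Icos among these 4 sets.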
